A study of Homo sapiens with 18 samples.

Results

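ADAM, ADAMTS and MMP genes code for zinc-dependent metalloproteases and their inactive relatives. They were taken here as every gene on the array whose symbol starts with ADAM, ADAMTS or MMP and a number. The rule uses symbols and no measured value, and it gave 45 genes of 14884 named genes, from 49 probe sets. Of several probe sets for a gene the brightest on average was used, which concerned 3 genes. Of the 45, 38 are protein coding and 7 are pseudogenes or an antisense RNA. The symbols split into 23 that start with ADAM and a number, 20 with MMP and 2 with ADAMTS. The ADAMTS symbols are both non-coding (ADAMTS7P1 and ADAMTS9-AS2), so the ADAMTS proteases are not analysed here, and MMP2, MMP3, MMP7, MMP9 and ADAM7 are not analysed here either.

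ADAM proteins sit in the plasma membrane, where the active ones cut off the outer part of neighbouring surface proteins such as cytokine precursors, growth factors and receptors. Their disintegrin domain can bind integrins, and several ADAM proteins lack the zinc-binding motif and act in adhesion only. MMP proteins degrade matrix proteins and are either secreted or tied to the membrane. TIMP proteins block both families, and proprotein convertases such as furin remove the prodomain that keeps many of them inactive. Monocytes and macrophages use these enzymes to shed surface receptors and to pass through tissue.

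The study measured U937, an established human line of monocytic lineage derived from a histiocytic lymphoma. There were 18 arrays (Affymetrix Human Gene 2.0 ST) in 6 groups of 3. The groups are decitabine, panobinostat, valproic acid, decitabine plus panobinostat, decitabine plus valproic acid, and an untreated control for which the labels name no vehicle. Those 2 pairs are called the panobinostat combination and the valproic acid combination below. Decitabine, a cytosine analogue, lowers DNA methylation, and both other agents block histone deacetylases. Cells received 3 decitabine pulses of 24 h each, and an inhibitor for 24 h during the final pulse, per the labels. The numbers 50 (decitabine), 8 (panobinostat) and 1 (valproic acid) stand in the labels without a unit, so doses are not taken as matched.

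Values are the deposited log2 signals, with a lowest of 2.29, a highest of 14.57 and medians per array of 3.81 to 3.87. Levels of different probe sets are not on one scale, since probes differ in how strongly they bind, so genes are compared with themselves across groups. The labels do not tell whether arrays of 1 group stem from different cultures, so p-values here reflect array-to-array spread that may be technical. Of 13 markers listed for the myelomonocytic line 6 were measured, and all 6 lay above the median of all values, 3.84, in control cells. Few genes listed as markers of other cell types were measured, and 5 of those rose in some treatment. They were the T cell marker CD2, the endothelial PECAM1, the fibroblast gene LUM, the epithelial EPCAM and the B cell factor PAX5. As RNA came from whole cultures, fewer cells of a type and less RNA per cell cannot be told apart.

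Decitabine acts at CG dinucleotides in DNA, so the 250 bases before the transcription start are shown for 2 called genes, MMP14 and MMP15. Both were called in the combinations, and MMP14 also with decitabine alone. A call in a group with decitabine does not set them apart. All 7 genes called against control were called in the panobinostat combination. Those of MMP10, a secreted stromelysin that was not called, are an example with few CG. They come from RefSeq, build GRCh38.p14, and read 5′ to 3′ along the gene, with each CG in capitals. MMP14 lies on the plus strand at chr14:22836335-22836584, MMP15 on the plus strand at chr16:58025504-58025753 and MMP10 on the minus strand at chr11:102780629-102780878.
MMP14: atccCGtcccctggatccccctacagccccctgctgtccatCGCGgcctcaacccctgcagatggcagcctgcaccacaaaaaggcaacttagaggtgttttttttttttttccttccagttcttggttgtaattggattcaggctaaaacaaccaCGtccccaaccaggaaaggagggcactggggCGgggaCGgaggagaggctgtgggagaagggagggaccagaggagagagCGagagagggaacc
MMP15: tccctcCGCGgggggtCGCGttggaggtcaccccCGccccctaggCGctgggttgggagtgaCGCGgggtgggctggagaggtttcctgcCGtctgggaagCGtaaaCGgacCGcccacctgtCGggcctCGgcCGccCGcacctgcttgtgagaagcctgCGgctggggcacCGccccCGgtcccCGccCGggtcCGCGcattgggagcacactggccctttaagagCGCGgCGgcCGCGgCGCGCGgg
MMP10: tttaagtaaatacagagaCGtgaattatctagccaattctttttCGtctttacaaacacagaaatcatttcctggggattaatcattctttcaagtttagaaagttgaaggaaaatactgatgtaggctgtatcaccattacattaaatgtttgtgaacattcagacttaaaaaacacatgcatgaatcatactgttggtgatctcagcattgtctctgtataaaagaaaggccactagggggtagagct

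MMP15 had 31 CG in these 250 bases, MMP14 had 7 and MMP10 had 2. Of 35114 promoters in the RefSeq table, whose median was 11 CG, 89.1% had fewer than MMP15, 41.1% fewer than MMP14 and 14.7% fewer than MMP10. The table held 24 of the 45 genes, and their counts ran from 0 in ADAM20, MMP8 and MMP26 to 36 in ADAM15. Among these 24, ADAM12 and ADAM17, never called, had 31 each and ADAM23, also never called, 33, while ADAM15, with the most, fell. ADAM28, MMP19 and ADAM9, which were called against control, were not among the 24. Whether the number of CG goes with a call was not tested. The AP-1 motif TGANTCA, which reads the same on both strands, was found in 2 of these 24, MMP10 and MMP20, and in 6.57% of all promoters. The GC box GGGCGG, searched on both strands and itself holding 1 CG, was found in 12 of the 24, MMP14 and MMP15 among them, and in 42.6% of all promoters. These matches describe the letters only, and DNA methylation was not measured on these arrays.

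Each treatment was compared with control to ask which metalloproteases the agents changed alone and together. A gene is said to rise, fall or be called where its adjusted p in limma was under 0.05, with Benjamini-Hochberg adjustment over all 14884 genes. Changes are on the log2 scale with the standard error (SE) of the fit, n is 3 in every group, and all 5 comparisons share the 3 control arrays. Calls among the 45 are given beside the share of all genes called, and whether these shares differ was not tested. A gene without a call is not shown to be unchanged, as 22 of the 45 lay below the median of all values in every group. With decitabine 1 of 45 was called, higher, against 3.96% of all genes (2.57% higher, 1.39% lower). With panobinostat 2 were called, both higher, against 7.39% of all genes (3.92% higher, 3.47% lower). With valproic acid 2 were called, both higher, against 7.47% (4.73% higher, 2.74% lower). With the panobinostat combination 7 were called (15.6%), 6 higher and 1 lower, against 23.2% of all genes (11.2% higher, 12.0% lower). With the valproic acid combination 6 were called (13.3%), all higher, against 17.0% (8.90% higher, 8.06% lower). Over all 5 comparisons 7 genes were called, ADAM28, MMP19, MMP15, MMP14, ADAM9, ADAM10 and ADAM15, and 38 were not. All but ADAM15 rose where called. The median change of the 45 lay between -0.03 and 0.05, and that of all genes between -0.02 and 0.00.

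**Figure D1:**
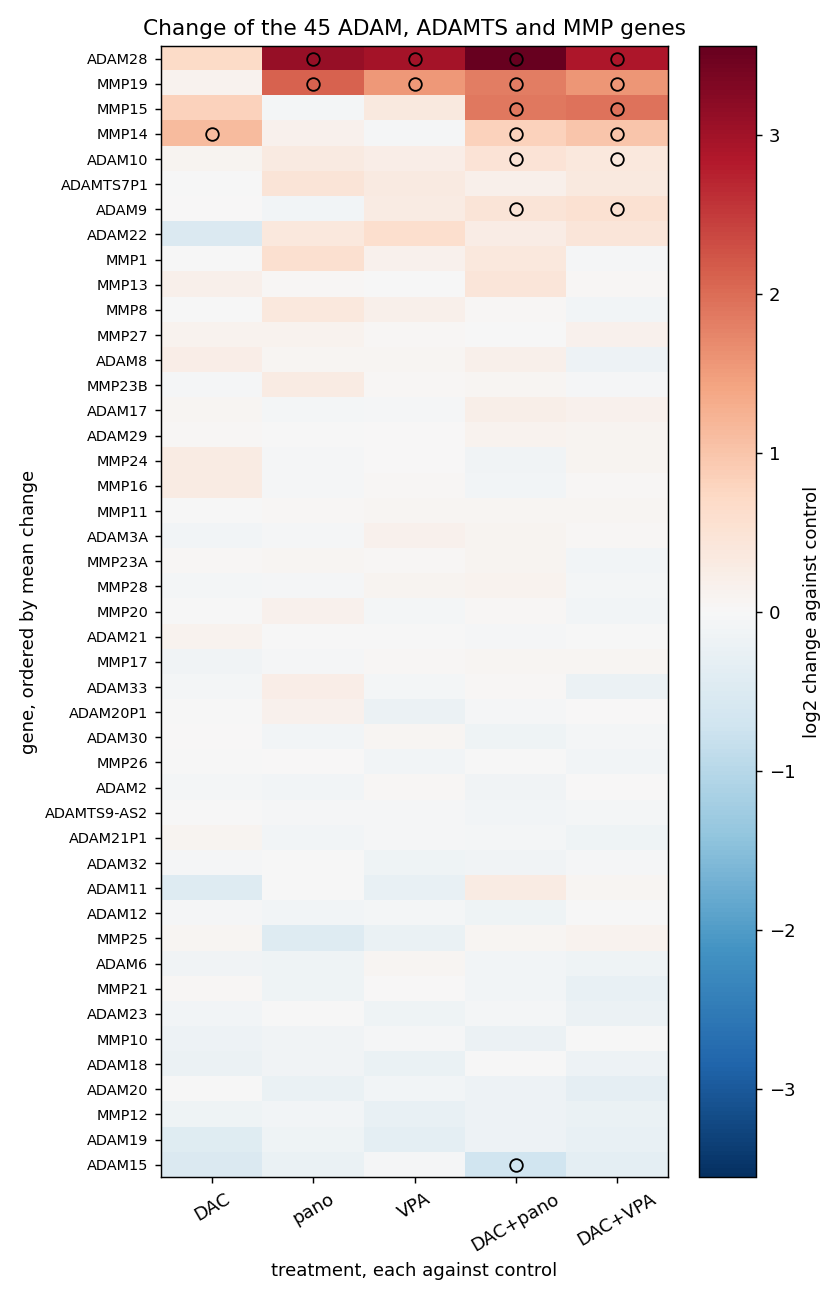
Log2 change of each of the 45 genes (rows, ordered by their mean change) in decitabine (DAC), panobinostat (pano), valproic acid (VPA) and the combinations, each against control. Circles mark an adjusted p under 0.05, and they fall on 7 genes, with ADAM28 reaching 3.56 in the panobinostat combination.

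The deacetylase inhibitors raised a membrane protease and a secreted one. ADAM28, a sheddase first described in lymphocytes that can release the IgE receptor CD23 (probe set 17066921, chromosome 8), had the largest change of the 45 genes. Its log2 levels were 4.38, 4.34 and 4.25 with decitabine, 6.61, 7.02 and 6.62 for panobinostat, 7.13, 6.10 and 6.53 for valproic acid, 7.08, 7.25 and 7.27 with the panobinostat combination, 6.07, 6.71 and 6.77 with the valproic acid combination, and 3.66, 3.69 and 3.57 in control. All 12 arrays that received an inhibitor lay above 6, and all decitabine arrays lay between these and the controls. The rise against control was 3.11 with panobinostat (SE 0.21, adjusted p 3.85e-07), 2.95 with valproic acid (SE 0.21, adjusted p 2.3e-06), 3.56 with the panobinostat combination (SE 0.21, adjusted p 9.41e-09) and 2.88 with the valproic acid combination (SE 0.21, adjusted p 1.76e-07). These are folds of 8.62, 7.71, 11.8 and 7.35, which may be understated, as the control mean of 3.64 lay below the median of all values. With decitabine alone the change was 0.68 (95% interval 0.23 to 1.14), which did not pass the test (adjusted p 0.0966), although it passed in a fit of only the decitabine and control arrays.

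MMP19, a secreted metalloprotease found in macrophages and synovium that degrades basement membrane proteins (probe set 16765809, chromosome 12), followed the inhibitors too. It stood at 3.64, 3.84 and 4.10 with decitabine, at 5.91, 5.85 and 5.71 with panobinostat, at 5.59, 4.67 and 5.56 with valproic acid, at 5.82, 5.11 and 5.73 with the panobinostat combination, at 4.83, 5.73 and 5.36 with the valproic acid combination, and at 3.67, 3.60 and 3.92 in control. The 12 arrays with an inhibitor were all above the 3 controls, while the decitabine arrays overlapped with them. MMP19 rose 4.27-fold with panobinostat (2.09, SE 0.26, adjusted p 9.09e-05), 2.91-fold with valproic acid (1.54, adjusted p 0.00164), 3.54-fold with the panobinostat combination (1.82, adjusted p 6.66e-05) and 2.98-fold with the valproic acid combination (1.58, adjusted p 0.000474). Its control mean, 3.73, also lay below that median, so these folds may be understated too. In decitabine its change was 0.13, with a 95% interval of -0.41 to 0.67.

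The mean level of the 6 measured myelomonocytic markers, CD4, ANPEP, SPI1, MPO, LYZ and CSF1R, was higher on every treated array than in control. It was 8.12 to 8.34 with decitabine, 7.81 to 7.86 in panobinostat, 7.53 to 7.69 in valproic acid, 7.92 to 8.04 in the panobinostat combination, 7.84 to 8.36 in the valproic acid combination, and 7.39 to 7.49 in control. With decitabine 2 rose and none fell, with each inhibitor 2 rose and 1 fell, and 3 rose in each combination, where 2 fell with panobinostat and 1 with valproic acid. LYZ, lysozyme, rose by 1.67 with decitabine and 1.71 in panobinostat, and MPO, myeloperoxidase, fell by 0.73 in panobinostat. The only B cell marker measured, PAX5, rose by 0.76 with valproic acid. Its changes were 0.15 with panobinostat, -0.54 in the panobinostat combination and 0.11 in the valproic acid combination, where ADAM28 rose too. The part of these markers in the changes of the metalloproteases was not tested.

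**Figure D2:**
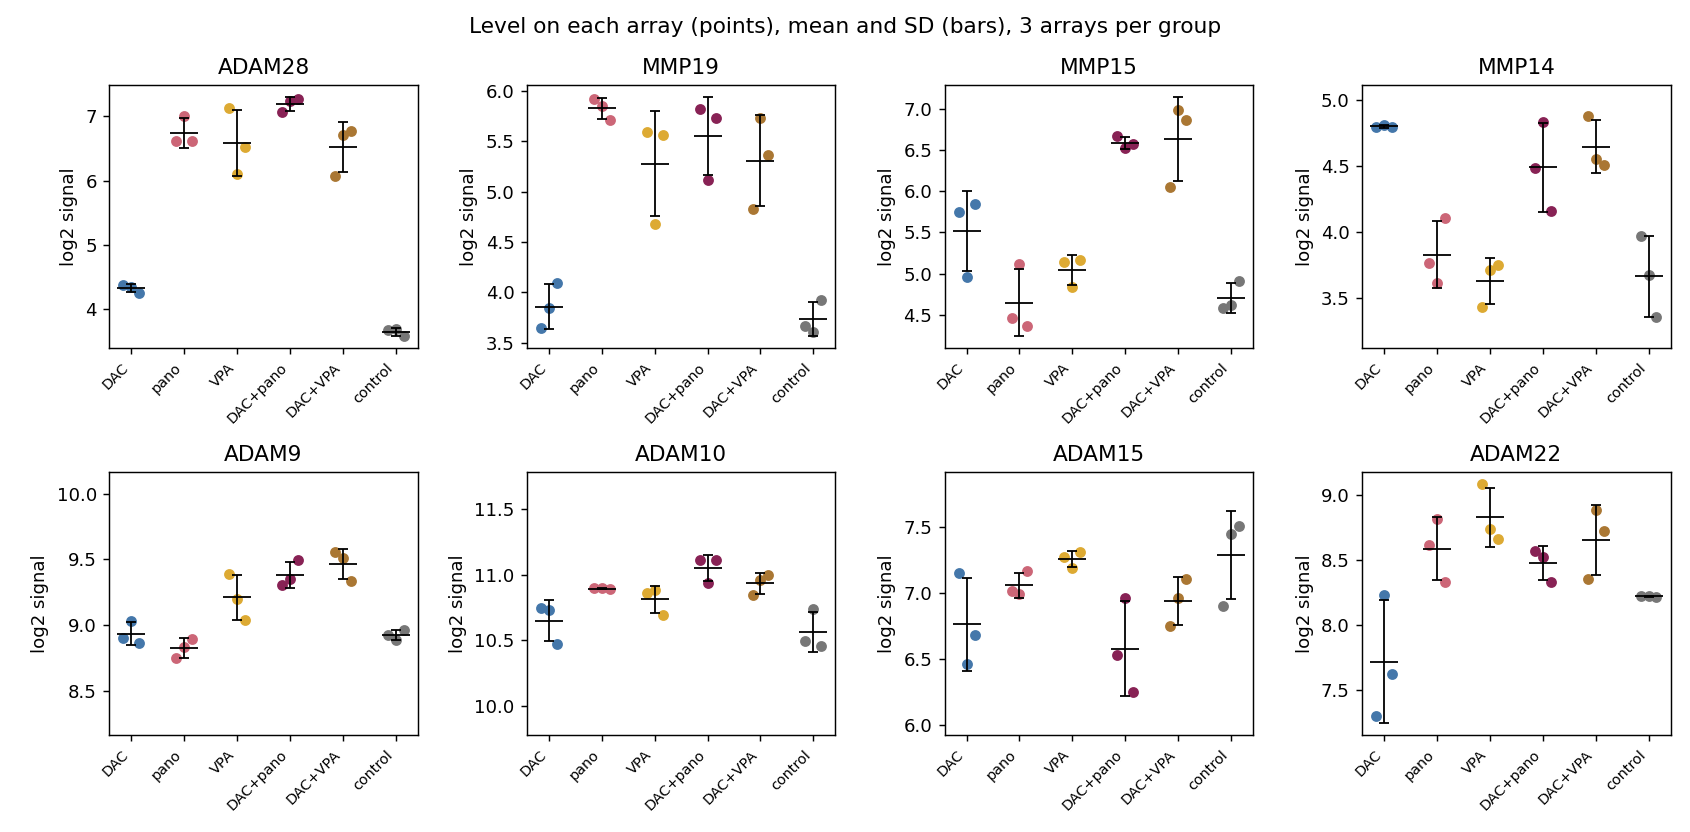
Log2 signal of 8 genes on each array (points), with group mean and SD (bars), in decitabine (DAC), panobinostat (pano), valproic acid (VPA), their combinations and control, 3 arrays each. ADAM28 and MMP19 are high in the 4 groups with an inhibitor, MMP14 in the 3 groups with decitabine, and MMP15 in the 2 combinations; each panel has its own range.

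Among membrane-type MMP genes, 2 rose in groups that received decitabine. MMP14, the membrane-type protease that cuts collagen and activates proMMP2 (probe set 16782187, chromosome 14), was the only member called with decitabine alone. Its levels were 4.79, 4.81 and 4.80 with decitabine, 3.77, 3.61 and 4.10 under panobinostat, 3.43, 3.71 and 3.75 under valproic acid, 4.49, 4.83 and 4.16 with the panobinostat combination, 4.88, 4.56 and 4.51 with the valproic acid combination, and 3.97, 3.67 and 3.35 in control. The 9 arrays that received decitabine were all above the controls, and both inhibitors alone overlapped with the controls. MMP14 rose 2.20-fold with decitabine (1.14, SE 0.18, adjusted p 0.00153), 1.78-fold with the panobinostat combination (0.83, adjusted p 0.00327) and 1.98-fold with the valproic acid combination (0.98, adjusted p 0.00144). Its levels stayed near those of the dimmer probe sets of the array, where changes can be understated.

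MMP15, a second membrane-type protease (probe set 16819653, chromosome 16), was highest in the combinations. It had levels of 5.74, 4.95 and 5.84 with decitabine, 4.46, 5.11 and 4.36 under panobinostat, 5.14, 4.84 and 5.16 under valproic acid, 6.67, 6.53 and 6.57 with the panobinostat combination, 6.05, 6.98 and 6.87 with the valproic acid combination, and 4.58, 4.62 and 4.91 in control. All 6 arrays of the combinations were above all 12 others. The rise was 3.70-fold with the panobinostat combination (1.89, SE 0.26, adjusted p 5.4e-05) and 3.81-fold with the valproic acid combination (1.93, SE 0.26, adjusted p 8.92e-05). With decitabine alone it was 0.81 (95% interval 0.26 to 1.36) and did not pass (adjusted p 0.1), but without decitabine replicate 2 MMP15 and ADAM22 passed as well as MMP14.

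Genes listed as markers of other cell types moved in the groups in which MMP14 and MMP15 rose. Such a listing does not mean that a gene is confined to that cell type. CD2, 1 of 2 measured T cell markers, rose by 0.94 with decitabine and by 1.88 and 2.04 in the panobinostat and valproic acid combinations. The mean of that list was 4.15 to 4.82, 4.70 to 4.85 and 4.75 to 4.83 in these groups, against 3.75 to 3.98 in control. PECAM1, 1 of 3 measured endothelial markers, rose by 0.99, 1.71 and 1.52 in the same groups, with list means of 3.72 to 3.80, 3.91 to 4.12 and 3.92 to 4.02, against 3.40 to 3.55 in control. LUM, 1 of 2 measured fibroblast markers, rose by 0.90 with decitabine and 0.88 in the valproic acid combination, with list means of 3.68 to 3.84 and 3.47 to 4.10, against 3.27 to 3.40 in control. EPCAM, 1 of 4 measured epithelial markers, rose by 0.73 in the panobinostat combination, where the list mean was 4.44 to 4.72, against 4.39 to 4.58 in control. None of the 4 erythroid markers was measured. The part of these lists in the changes of MMP14 and MMP15 was not tested.

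The remaining membrane-type genes gave no call against control. MMP16 changed by 0.30 with decitabine and MMP24 by 0.29, each with all 3 decitabine arrays above the controls and an adjusted p of 0.176 and 0.192. MMP25, an enzyme of leukocytes, had the largest standard error of the 45 genes against control (0.35), with 6.03, 4.64 and 5.36 in panobinostat against 5.63, 5.83 and 5.96 in control. The other 2 probe sets named MMP25 had means of 3.92 and 4.07 over all arrays, against 5.73 for the one used, and the second one named MMP24 had 3.28 against 5.46. In the RefSeq table MMP24 shares bases with MMP24OS and MMP24-AS1-EDEM2, and MMP25 with MMP25-AS1 and LOC124900372. Which of these transcripts the probe sets named MMP24 and MMP25 read was not settled, so their values may not be those of the proteases. None of the 4 probe sets of members that were not used was called in any comparison.

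ADAM9 and ADAM10, broadly expressed sheddases, rose slightly in the combinations. ADAM9, which releases growth factors such as HBEGF (probe set 17068170, chromosome 8), had levels of 9.31, 9.35 and 9.50 with the panobinostat combination, 9.55, 9.51 and 9.33 with the valproic acid combination, and 8.93, 8.89 and 8.97 in control. The 6 combination arrays were all above the controls, on average by 0.46 (SE 0.10, 1.37-fold, adjusted p 0.00405) and 0.54 (SE 0.10, 1.45-fold, adjusted p 0.00188). Alone, decitabine changed ADAM9 by 0.01, panobinostat by -0.10 and valproic acid by 0.28, none of which passed.

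ADAM10, the sheddase that cuts Notch receptors and the amyloid precursor (probe set 16809880, chromosome 15), stood at 11.11, 10.94 and 11.11 with the panobinostat combination, at 10.85, 10.96 and 10.995 with the valproic acid combination, and at 10.50, 10.74 and 10.46 in control. It rose by 0.49 (SE 0.11, 1.40-fold, adjusted p 0.00276) and by 0.37 (SE 0.11, 1.29-fold, adjusted p 0.0237). The second call was lost without control replicate 1 (adjusted p 0.0849) or replicate 3 (0.0984), and without replicate 2 (0.0705) or 3 of the valproic acid combination (0.0861). With panobinostat alone the change was 0.33 and the adjusted p 0.0738.

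ADAM15 is an active ADAM whose disintegrin domain carries an integrin-binding motif (probe set 16671579, chromosome 1). In the fit of all 18 arrays it was the only member that fell against control. Its levels were 6.53, 6.96 and 6.25 with the panobinostat combination, against 6.90, 7.45 and 7.51 in control. The groups overlapped by 1 array on each side. The change was -0.71 (SE 0.20, adjusted p 0.0153). It was lost without control replicate 2 (adjusted p 0.0637), control replicate 3 (0.075) or replicate 3 of the panobinostat combination (0.0848). In decitabine alone it was -0.53, with an adjusted p of 0.183.

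ADAM17, the main sheddase of TNF, gave no call. Its levels were 9.54, 9.36 and 9.43 with decitabine, 9.22, 9.36 and 9.36 under panobinostat, 9.31, 9.34 and 9.32 under valproic acid, 9.57, 9.48 and 9.65 with the panobinostat combination, 9.58, 9.54 and 9.45 with the valproic acid combination, and 9.34, 9.47 and 9.29 in control. Its 95% intervals against control lay between -0.25 and 0.39 over the 5 comparisons. Among the 5 treatments the panobinostat combination alone had all 3 arrays above the controls (0.20, adjusted p 0.134).

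By class, 4 of the 12 active ADAM genes were called against control in some treatment (ADAM28, ADAM9, ADAM10 and ADAM15). So were 2 of 6 membrane-type MMP genes and MMP19 among 7 MMP genes of no other class. All 7 were called in the panobinostat combination, where 23.2% of all genes were called. None was called among 7 ADAM genes without protease activity, 3 collagenases, 2 stromelysins, the matrilysin MMP26 and 7 non-coding genes. Control means of the 3 collagenases lay between 3.34 and 3.42. In control cells 13 of the 45 genes had a mean above the median of all values, and 22 had none above it in any group. The 34 genes that gave no call in any of the 13 comparisons had changes against control between -0.46 (MMP25) and 0.57 (MMP1). Group means of a gene spanned over 1 on the log2 scale for 5 of the 45, and the median span was 0.29, against 0.42 for all genes.

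Neighbours on a chromosome did not all share the change of a called gene. ADAM9 lies in a row of ADAM genes on chromosome 8 in the RefSeq table for GRCh38.p14, with ADAM32, ADAM3A, ADAM18 and ADAM2. The other 4 genes had group means between 3.14 and 3.59 and changes between -0.23 and 0.15, with no call in the 5 comparisons with control (smallest adjusted p 0.426). On chromosome 11, MMP20, MMP27, MMP8, MMP10, MMP1, MMP12 and MMP13 lie in a row, and these 7 had group means between 3.18 and 3.99 with no call (smallest adjusted p 0.0576, for MMP13 in the panobinostat combination). The collagenases MMP1 and MMP8 changed by 0.57 and 0.38 with panobinostat, each with all 3 arrays above the controls and with an adjusted p of 0.0683 and 0.0779. MMP1 and ADAM10 passed the test with panobinostat when control replicate 2 was left out. The 4 ADAM20 and ADAM21 genes and pseudogenes of chromosome 14 had changes between -0.31 and 0.15 and no call.

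Each combination was next compared with its agents. Against decitabine, the panobinostat combination gave calls for 9 of 45, 7 higher and 2 lower, where 15.6% of all genes were called (7.66% higher, 7.91% lower). Against panobinostat alone it gave 3, all higher, where 9.55% of all genes were called (5.42% higher, 4.13% lower). The valproic acid combination gave 5 against decitabine, all higher, where 6.13% of all genes were called (3.57% higher, 2.57% lower). Against valproic acid it gave 2, both higher, where 4.03% were called (2.63% higher, 1.40% lower). ADAM28 rose by 2.88 (SE 0.21) and 2.20 (SE 0.21) over decitabine when panobinostat or valproic acid was added, and MMP19 by 1.69 (SE 0.26) and 1.45 (SE 0.26). Adding decitabine to panobinostat or to valproic acid changed ADAM28 by 0.45 and -0.07 and MMP19 by -0.27 and 0.03, none of which passed.

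MMP15 was higher in each combination than with either of its agents alone. The difference was 1.94 (SE 0.26, adjusted p 0.000154) in the panobinostat combination than in panobinostat alone and by 1.59 (SE 0.26, adjusted p 0.00151) in the valproic acid combination than in valproic acid alone. Over decitabine alone it was higher by 1.08 (adjusted p 0.00938) and 1.12 (adjusted p 0.0179). Both calls over decitabine were lost without decitabine replicate 2, the lowest of its group, with adjusted p of 0.0511 and 0.0778. The second was lost as well without replicate 2 (0.0874) or 3 of the valproic acid combination (0.0861), and in a fit of only those groups (0.121). MMP14 was higher by 0.66 in the panobinostat combination than in panobinostat alone (adjusted p 0.0311) and by 1.02 in the valproic acid combination than in valproic acid alone (adjusted p 0.00357). The first of these was lost without panobinostat replicate 1 (adjusted p 0.1) or replicate 2 (0.122), and without replicate 1 (0.0788) or 2 of the panobinostat combination (0.138).

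ADAM9 was higher in the panobinostat combination than in decitabine (0.45, adjusted p 0.00755) and than in panobinostat (0.56, adjusted p 0.00262), and in the valproic acid combination than in decitabine (0.53, adjusted p 0.00773). This last call was lost in a fit of only those groups (0.0751). ADAM10 was higher in the panobinostat combination than in decitabine by 0.40 (adjusted p 0.0168), a call lost without decitabine replicate 3 (0.0899) or replicate 1 (0.0587) or 3 (0.0609) of the combination. 4 genes that had no call against control were called here, and are named because their values were seen. ADAM22, an inactive ADAM that binds LGI1 at synapses, had levels of 8.57, 8.53 and 8.33 in the panobinostat combination and 8.36, 8.89 and 8.72 in the valproic acid combination, against 7.30, 8.23 and 7.62 in decitabine. It was higher by 0.76 (adjusted p 0.0176) and 0.94 (adjusted p 0.0126). Against control ADAM22 changed by -0.50 with decitabine and by 0.25 and 0.43 in the combinations, none of which passed. Both calls over decitabine were lost without decitabine replicate 1 (0.093 and 0.0601) or replicate 3 (0.0637 and 0.052) and without single arrays of the combinations (0.0528 to 0.0646). ADAM11, also inactive as a protease, was higher by 0.76 in the panobinostat combination than in decitabine (adjusted p 0.0441). With any 1 of these 6 arrays left out it did not pass (0.0636 to 0.143). Its changes against control were -0.46 with decitabine and 0.30 in that combination, neither of which passed.

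MMP16 and MMP24 were lower in the panobinostat combination than in decitabine. MMP16 had 3.47, 3.46 and 3.40 in the panobinostat combination, against 3.84, 3.73 and 3.99 in decitabine, a change of -0.40 (SE 0.11, adjusted p 0.0203). These levels lay near or below the median of all values, 3.84, and the change of MMP16 in that combination against control was -0.11. The probe set named MMP24, which may read an overlapping gene, had 5.37, 5.44 and 5.08 against 5.66, 5.54 and 5.91 in the same groups, a change of -0.41 (SE 0.11, adjusted p 0.0201). In both, the groups did not overlap, and both calls were lost without decitabine replicate 3 (0.0956 and 0.108) or replicate 3 of the panobinostat combination (0.0679 and 0.107). With the mean of the 2 probe sets of MMP24 in place of the brighter one its change was -0.19 (adjusted p 0.235), and with an intensity trend and robust moderation the adjusted p was 0.15.

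An interaction term, in which the 2 single-agent changes are subtracted from that of the pair, asks whether agents acted additively on the log2 scale. No member was called for decitabine with panobinostat, where 0.625% of all genes were, or with valproic acid, where 0.0605% were. At an unadjusted p under 0.05 there were 5 members with panobinostat (MMP15, ADAM9, ADAM11, MMP16 and MMP24) and 3 with valproic acid (MMP15, ADAM11 and ADAM28). These are 11.1% and 6.67% of the 45, against 10.5% and 7.72% of all genes at that threshold. MMP15 exceeded the sum by 1.13 with panobinostat (95% interval 0.36 to 1.91, adjusted p 0.227) and by 0.78 with valproic acid (0.00 to 1.55, adjusted p 0.647). ADAM9 exceeded it by 0.55 with panobinostat (0.24 to 0.86, adjusted p 0.128). ADAM28 fell short of the sum of 3.63 with valproic acid, at 2.88 in the combination, an interaction of -0.75 (-1.39 to -0.11, adjusted p 0.563), and with panobinostat the interaction was -0.23 (-0.87 to 0.41). At this number of arrays the intervals were wide.

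**Figure D3:**
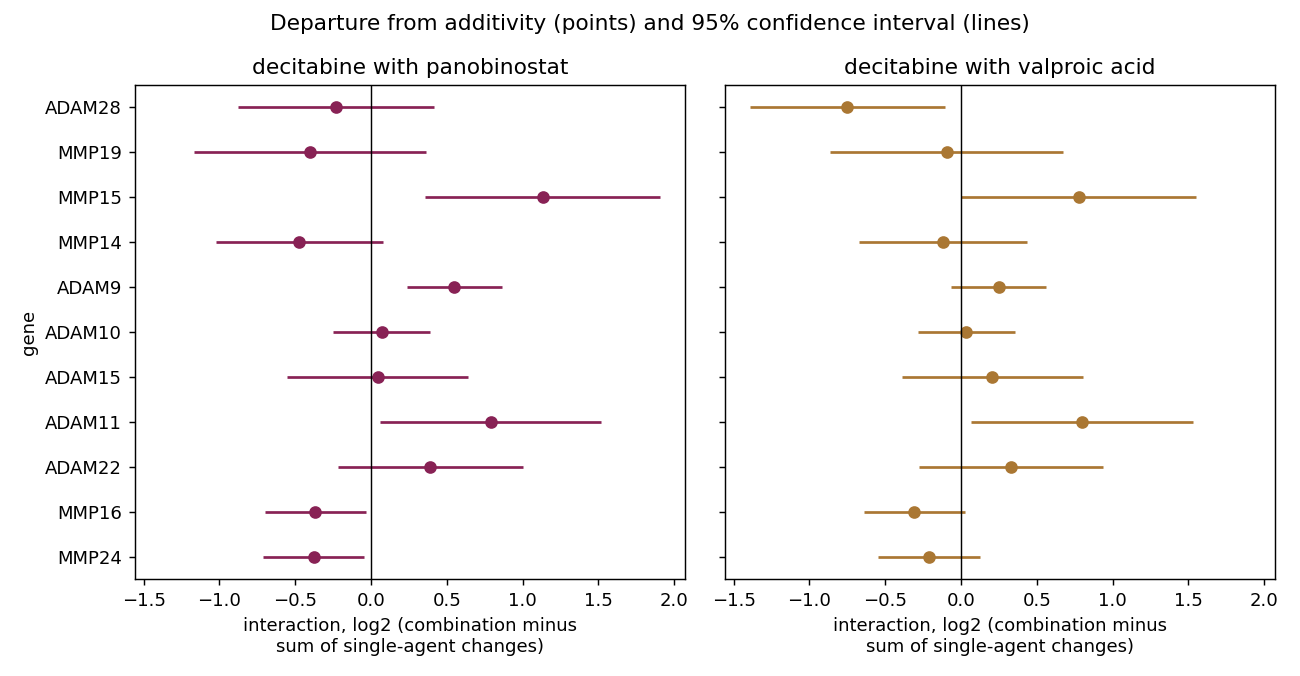
Interaction of decitabine with panobinostat (left) and valproic acid (right) for the 11 genes called in any comparison, as the log2 change of the combination minus the sum of the single-agent changes. Points are estimates and lines 95% intervals; MMP15 and ADAM9 lie above 0 with panobinostat and ADAM28 below 0 with valproic acid, all with an adjusted p over 0.1.

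The 2 inhibitors were also set against each other, although their doses are not matched. No member was called between the single agents (0.121% of all genes) or between the combinations (0.652%), with 5 members (11.1%) at an unadjusted p under 0.05 in each, against 9.06% and 11.9% of all genes. ADAM28 differed by 0.16 between panobinostat and valproic acid (95% interval -0.30 to 0.62) and by 0.68 between the panobinostat combination and the valproic acid combination (0.22 to 1.14, adjusted p 0.181). MMP19 was 0.55 higher in panobinostat than in valproic acid (0.01 to 1.09, adjusted p 0.542). ADAM9 was lower in panobinostat than in valproic acid by 0.38 (adjusted p 0.231), with all 3 panobinostat arrays below those of valproic acid.

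Genes that act with the metalloproteases were taken from lists written from general knowledge. The inhibitor list held tissue inhibitors of metalloproteases and other protein inhibitors. The latter need not block metalloproteases, and CST3 among them is counted with those that rose in both combinations. Of its 9 measured genes 6 rose with the panobinostat combination, where 11.2% of all genes were called higher. With the valproic acid combination 4 rose, where 8.90% of all genes were called higher. None fell in either combination. The median change of the list was 0.94 and 0.56, against -0.02 and -0.02 for all genes. TIMP3, a matrix-bound inhibitor of ADAM17 and of MMP proteins, rose by 1.68 (SE 0.32, adjusted p 0.000867) and 1.85 (SE 0.32, adjusted p 0.000698), with means of 5.69 and 5.87 against 4.02 in control. TIMP2, which also takes part in the activation of MMP2 by MMP14, rose by 1.36 and 0.98, and by 0.88 and 0.73 with panobinostat and valproic acid alone. TIMP4 rose by 1.28 and 1.12 in the combinations. A2M, a broad trap for proteases, rose by 1.71 with the panobinostat combination and was not called in the valproic acid combination (adjusted p 0.109). TIMP1 gave no call in the 5 comparisons.

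**Figure D4:**
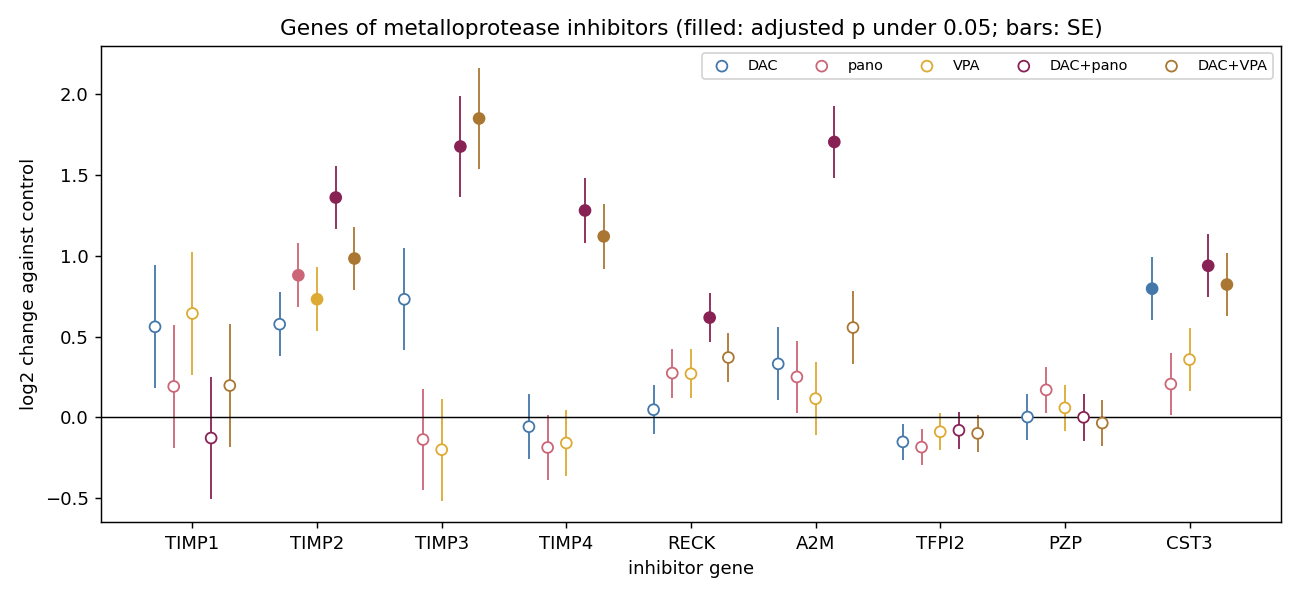
Log2 change against control of 9 genes of tissue inhibitors of metalloproteases and other protein inhibitors, with SE as bars. Treatments are decitabine (DAC), panobinostat (pano), valproic acid (VPA) and the combinations. Filled points passed an adjusted p of 0.05: TIMP2, TIMP3, TIMP4 and CST3 are filled in both combinations. CST3 belongs to the other protein inhibitors, which need not block metalloproteases.

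FURIN, the convertase that removes the prodomain of many ADAM and membrane-type MMP proteins, rose by 0.58 with decitabine, 0.66 with valproic acid, 1.14 with the panobinostat combination and 0.84 with the valproic acid combination (SE 0.15 each). It was 1 of 2 convertases called among 5 measured. Both rose in the valproic acid combination, where 8.90% of all genes were called higher. Of 10 measured partners of ADAM10 and ADAM17, RHBDF2, the iRhom that carries ADAM17 to the surface, fell by 0.87 with panobinostat (SE 0.15, adjusted p 0.00166) and by 0.90 with the panobinostat combination (adjusted p 0.000283). TSPAN15, a tetraspanin that binds ADAM10, rose by 1.03 and 1.14 in the panobinostat combination and the valproic acid combination. TSPAN33 rose by 0.70 with valproic acid and TSPAN14 by 0.61 in the valproic acid combination. Of the 10 partners 4 were called against control in some treatment. In the panobinostat combination 1 rose and 1 fell, where 11.2% of all genes were called higher and 12.0% lower. In the valproic acid combination 2 rose, where 8.90% of all genes were called higher.

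Of 36 measured genes of surface proteins that ADAM sheddases can release, 11 were called against control in some treatment. Higher and lower counts are given with the shares of all genes in brackets. They were 2 and 0 with decitabine (2.57% and 1.39%) and 4 and 3 under panobinostat (3.92% and 3.47%). Under valproic acid they were 5 and 1 (4.73% and 2.74%). The counts were 6 and 1 with the panobinostat combination (11.2% and 12.0%) and 6 and 0 with the valproic acid combination (8.90% and 8.06%). The list median stayed between -0.03 and 0.05. TREM1, a myeloid receptor, rose by 3.23 with the panobinostat combination (SE 0.18, adjusted p 4.02e-09) and by 2.03 with the valproic acid combination. With panobinostat and valproic acid alone TREM1 rose by 1.12 and 1.17. The growth factor HBEGF rose by 1.47 with panobinostat, 1.25 with valproic acid and 1.55 with the panobinostat combination (SE 0.32 each). CSF1R, the receptor for macrophage colony-stimulating factor, rose in all 5 comparisons, by 1.46 to 2.41. MERTK, a receptor for the uptake of dead cells, rose by 0.98 and 1.45 in the panobinostat and valproic acid combinations. The only adhesion partner of ADAM proteins measured, SELPLG, a selectin ligand of leukocytes, fell by 1.13 with the panobinostat combination, by 0.88 with the valproic acid combination and by 0.74 with valproic acid.

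Among 16 measured matrix proteins that MMP and ADAMTS proteases cut, 2 were called, both higher. Both were called in the panobinostat combination, where 11.2% of all genes were called higher. SPP1, osteopontin, rose by 2.27 with panobinostat (SE 0.37, adjusted p 0.001), 1.64 with valproic acid, 2.63 with the panobinostat combination and 1.83 with the valproic acid combination. FN1, fibronectin, rose by 0.53 with panobinostat, 0.96 with the panobinostat combination and 0.59 with the valproic acid combination (SE 0.15 each). Of 25 measured transcription factors known to act on metalloprotease promoters, 9 rose and 3 fell with the panobinostat combination. Of all genes 11.2% were called higher there and 12.0% lower. With the valproic acid combination 8 rose and 2 fell, where 8.90% of all genes were called higher and 8.06% lower. ETS1 rose in all 5 comparisons, by 0.93 in decitabine, 1.32 in panobinostat, 1.41 in valproic acid, 1.88 in the panobinostat combination and 1.45 with the valproic acid combination (SE 0.12 each). JUN, a subunit of AP-1, rose by 0.98 with valproic acid alone, 0.98 with the panobinostat combination and 1.07 with the valproic acid combination. FOS rose by 1.40 with the panobinostat combination and RUNX1 by 1.18 with the valproic acid combination. Neither was called in another of the 5 comparisons.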

How the data were processed

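The authors' deposited values are log2 signals made with RMA (background correction, quantile normalization between arrays and summary by probe set), a tool named in the submitters' processing notes with no version. The table had 48226 probe sets, of which 16098 had 1 symbol, 0 several and 32128 none. Symbols were looked up by gene identifier in RefSeq, and the probe set with the highest mean stood for each of 14884 genes. All genes were tested, dim ones included. Precision is set by the number of arrays.

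limma 3.58.1 in R 4.3.3 fitted 1 mean per group over all 18 arrays, with 12 residual degrees of freedom and empirical Bayes moderation, for 13 comparisons. Its test was checked on simulated arrays with planted changes. Genes are named by the rule that every member called against control or in an interaction is described, with up to 4 called genes of each related list and at most 10 uncalled members that background or a gene cluster turns on. The members and lists were chosen with earlier results of these data known. Alternatives were a replicate block, only the groups compared, an intensity trend with robust moderation, a filter on dim probe sets, the mean of probe sets, arrays centred on their medians, and each array left out.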

Additional observations from a re-analysis of the deposited data

How the results depend on the processing

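Of 37 calls of single members over the 13 comparisons, 25 were kept under every alternative run and 12 were lost under at least 1, with 0 reversals of direction. With the replicate block, a fit that treats equal replicate numbers as pairs, all 37 calls were kept, and the number of members called with decitabine was again 1. The labels do not tie equal numbers together, so the numbers were not taken as pairs. Of 45 same-numbered pairs of arrays 1 had deviations from the group means correlated above 0.1. The median correlation of these pairs was 0.02, against -0.004 for pairs of unequal number. For 10 of 18 arrays the most correlated array of another group had the same number. Whether equal numbers share a culture was not settled. In a fit of only the groups compared, the members called numbered 2 with decitabine against control, 5 in decitabine plus panobinostat against decitabine and 2 in decitabine plus valproic acid against decitabine, in place of 1, 9 and 5. These fits have fewer arrays. With the intensity trend and robust moderation 4 were called with panobinostat in place of 2; the cause was not tested. With single arrays left out the counts ran from 1 to 3 with decitabine (3 without decitabine replicate 2), from 2 to 4 with panobinostat (4 without control replicate 2), from 4 to 7 in decitabine plus panobinostat against decitabine (4 without decitabine replicate 3, 5 without decitabine plus panobinostat replicate 3) and from 3 to 6 in decitabine plus valproic acid against decitabine (3 without decitabine plus valproic acid replicate 2 or 3). Calls lost in the fits of only the groups compared were ADAM15 (adjusted p 0.0589) in decitabine plus panobinostat and ADAM10 (0.0933) in decitabine plus valproic acid against control. Over decitabine they were ADAM10 (0.0796), ADAM22 (0.0725), MMP16 (0.058) and MMP24 (0.129) with panobinostat added, and ADAM22 (0.108), ADAM9 (0.0751) and MMP15 (0.121) with valproic acid added. MMP14 was lost in decitabine plus panobinostat against panobinostat (0.103). Counts over all genes moved too. In the same fits 938 in place of 1421 genes were called in decitabine plus panobinostat against panobinostat, 177 in place of 913 in decitabine plus valproic acid against decitabine and 261 in place of 600 against valproic acid. Between the combinations 2 were called in place of 97, and between panobinostat and valproic acid limma called 0 in place of 18, with 1391 at an unadjusted p under 0.05. The interaction with valproic acid gave 3 in place of 9, and 16 with the trend. With 1 array left out 361 to 468 genes were called with decitabine in place of 590, 659 to 854 with panobinostat in place of 1100 and 508 to 1001 with valproic acid in place of 1112. The range was 882 to 1126 in decitabine plus panobinostat against panobinostat, 360 to 1227 in decitabine plus valproic acid against decitabine and 371 to 565 against valproic acid. It was 4 to 15 between the inhibitors, 26 to 109 between the combinations, and 46 to 98 in place of 93 and 3 to 26 in place of 9 for the interactions with panobinostat and valproic acid. The probe sets of many members lay near the dim end of the array, which limits what changes can be seen there.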
